A study of Mus musculus with 4 samples.

Results

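The genes of the IgM heavy chain and of the immunoglobulin light chains were followed through their constant regions: Ighm, Igkc, Iglc1, Iglc2 and Iglc3 were chosen by name. Of these 5 genes, 3 (Ighm, Igkc and Iglc2) had a row among the 41342 named genes of the gene count table. Iglc1 and Iglc3 were not analysed here, so "lambda" below stands for the Iglc2 row wherever constant genes are meant. In the kallisto tables the members had 4 of 88198 transcripts, namely a secreted and a membrane form of Ighm and 1 transcript each of Igkc and Iglc2.

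Total RNA of splenic B cells, isolated by a density gradient and by removal of CD43-bearing cells, was sequenced after depletion of ribosomal RNA. ΔleftPAL mice are homozygous for a deletion of the left part of the palindrome of the 3'RR, the cluster of enhancers downstream of the heavy chain constant genes. It removes the enhancers hs3a and hs1,2 and the IRIS, the inverted repeat sequence between them. ΔIRIS mice are homozygous for the same deletion with an inverted hs3a and hs1,2 put back, so that they lack the IRIS and keep the enhancers. Both lines were made in ES cells of strain 129, were bred through C57Bl/6, and carried no neomycin cassette after cre deletion. The methods give the background of both lines as 129, which is also the strain that the labels name. The mice were males of 8 to 12 weeks. For each genotype there was 1 library of resting cells, taken directly after isolation, and 1 of LPS cells, which had spent 48 h in medium with bacterial lipopolysaccharide at 5 μg per ml and were passed over a gradient again. The labels describe each library as a pool of B cells of 4 animals, and the methods also name 4 mice per genotype. However, the methods give 2 pooled RNAs per genotype, each of 2 samples, and the legend of the RNA-seq data gives 3 mice per genotype. The number of mice behind a library is thus uncertain. The 4 libraries therefore form 4 groups of 1, no wt library was analysed here, and no difference between a pair of libraries has a replicate check or a test of its own.

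The libraries held between 23615496 and 29776108 fragments assigned to named genes. The B cell markers Ms4a1 and Cd22 were present in each, at 748 to 946 and 288 to 637 CPM (CPM being gene counts scaled to a common library size with TMM factors). The resting libraries also held red cell RNA: 4 globin genes made up 4.20% of the fragments in resting ΔleftPAL and 2.84% in resting ΔIRIS cells, against at most 0.0120% after LPS. Mitochondrial ribosomal RNA made up 21.8% of the fragments in resting ΔIRIS cells, and at most 16.8% in each other library. Summed markers of myeloid cells were 288 CPM in resting ΔleftPAL and 385 CPM in resting ΔIRIS cells, for the most part Csf1r and Lyz2, which after LPS were at most 1.30 CPM. After LPS the sum was 6.79 CPM in ΔleftPAL and 16.001 CPM in ΔIRIS cells, of which Itgam made up 5.20 and 15.4. Those of T cells were at most 25.2 CPM at rest and at most 0.111 CPM after LPS and those of NK cells did not pass 2.09 CPM. The part of these other cells in the changes with LPS was not tested.

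An immunoglobulin is built of heavy and light chains, each with a variable domain for antigen and a constant region. In resting B cells the μ heavy chain is anchored in the membrane as part of the B cell receptor, and in antibody-secreting cells the same gene gives a secreted chain that assembles into polymers. The choice is made at the 3' end of the Ighm RNA: cleavage after the last constant domain exon gives the secreted form, and splicing from within that exon to the membrane exons gives the receptor form. Each B cell uses either a kappa or a lambda light chain, and most mouse B cells use kappa.

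The sequences that separate the forms of Ighm are shown because the counts of secreted and membrane RNA rest on them. Ighm (ENSMUSG00000076617) is read from the minus strand of chromosome 12 (mm10), and its 2 transcripts share 1305 bases of constant domain sequence. The secreted transcript alone holds 188 bases and the membrane transcript alone 393. The coding part particular to the secreted form, at chr12:113420867-113420928, is the tail through which IgM chains form polymers. The coding part particular to the membrane form joins the exon at chr12:113418953-113419068 to the start of the last exon at chr12:113418826-113418834, and encodes the membrane anchor. Both are written 5' to 3' from the GENCODE M21 transcripts (GRCm38), with the stop codon in capitals.
Ighm secreted tail: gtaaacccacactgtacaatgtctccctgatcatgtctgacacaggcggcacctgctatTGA
Ighm membrane coding part: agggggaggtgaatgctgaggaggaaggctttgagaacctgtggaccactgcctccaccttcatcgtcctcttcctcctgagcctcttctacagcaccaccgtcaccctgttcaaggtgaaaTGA

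Each form ends at a cleavage site of its own, and the last 50 bases of both transcripts were searched on the transcribed strand for AATAAA, the usual signal for cleavage and polyadenylation. Both held it, as did 40.6% of 58787 protein-coding transcripts. The 30 bases around it are given with the signal in capitals, for the secreted end at chr12:113420749-113420778 and for the membrane end at chr12:113418566-113418595.
Ighm secreted end: ataaaaattagaAATAAAaaaaatccattc
Ighm membrane end: atgtcacatggaAATAAAtactttatcttg

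Secreted Ighm RNA was the minor form at rest and the major form after LPS in both genotypes. In kallisto estimated counts, which share out reads that fit several transcripts, the secreted transcript made up 23.8% of Ighm in resting ΔleftPAL cells (exact 95% Clopper-Pearson interval 23.5 to 24.0) and 84.5% after LPS (interval 84.3 to 84.6). In ΔIRIS cells it made up 24.0% at rest (interval 23.8 to 24.3) and 76.8% after LPS (interval 76.65 to 76.99). All intervals given here reflect counting error alone, and PCR copies of a molecule are counted as if they were separate. The resting libraries thus differed by 0.29 percentage points and the LPS libraries by 7.64, with the lower secreted share in ΔIRIS cells.

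With LPS the share went up by 60.7 percentage points in ΔleftPAL cells, and in ΔIRIS cells by 52.8. Among 6730 genes with at least 2 transcripts and 100 estimated counts in every library, 14.8% had a transcript share that moved by at least 20 points with LPS in ΔleftPAL cells and 16.7% in ΔIRIS cells. A shift as large as that of Ighm or larger was found for 0.327% and 0.461% of them, Ighm included. Between the genotypes, 3.97% of the genes moved by at least 20 points at rest and 3.45% after LPS, and the difference of Ighm after LPS was reached or passed by 23.7%.

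With library sizes taken over all genes, and in TPM, the increase lay in the secreted form. Its estimated counts numbered 20825 in resting ΔleftPAL, 268124 in LPS ΔleftPAL, 22742 in resting ΔIRIS and 182672 in LPS ΔIRIS cells. Scaled to CPM, secreted Ighm was 12.7-fold higher after LPS in ΔleftPAL cells (log2 ratio 3.66, interval 3.64 to 3.68) and 8.90-fold higher in ΔIRIS cells (3.15, interval 3.13 to 3.17). Scaled by Gapdh, a glycolysis gene that was itself higher after LPS, the log2 ratio of the secreted form was 0.88 in ΔleftPAL and 0.06 in ΔIRIS cells, and that of the membrane form was -3.25 and -3.33. The share of the secreted form needs no scaling between libraries. With TMM, the log2 change of the secreted form in ΔIRIS cells was smaller by 0.51, a difference between 2 pairs of libraries that has no test.

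The membrane form did not share in this increase. It numbered 66846 estimated counts in resting and 49331 in LPS ΔleftPAL cells, and 71832 in resting and 55108 in LPS ΔIRIS cells. Its log2 ratio of LPS over resting was -0.46 in ΔleftPAL (interval -0.48 to -0.44) and -0.23 in ΔIRIS cells (interval -0.25 to -0.22). Both log2 ratios remained below 0 under each scaling of the estimated counts and in TPM, the values kallisto gives per transcript length. In TPM they were -0.82 in ΔleftPAL and -0.65 in ΔIRIS cells, and with total estimated counts -0.76 and -0.59.

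Between the LPS libraries the difference was one of secreted RNA. Secreted Ighm was lower in ΔIRIS than in ΔleftPAL cells, with a log2 ratio of -0.60 (interval -0.61 to -0.59), or 1.52-fold. Membrane Ighm differed by 0.11 (interval 0.09 to 0.13), and the sign of that value depended on the scaling, being -0.03 with total estimated counts, -0.01 in TPM and -0.14 when scaled by Gapdh. The resting libraries were closer, with log2 ratios of -0.09 for the secreted and -0.12 for the membrane form.

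**Figure D1:**
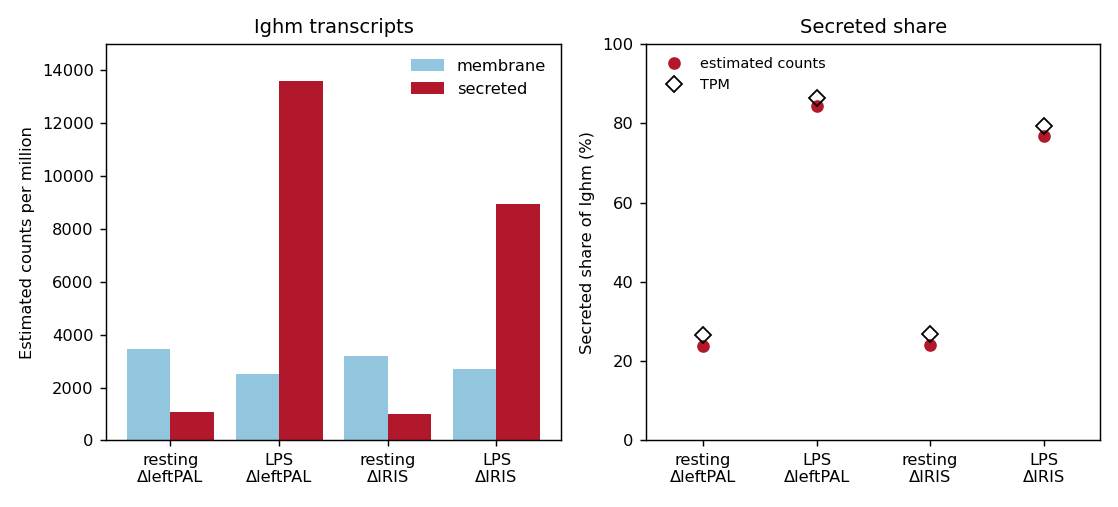
Ighm transcripts in the 4 libraries, 1 library per group. Left, kallisto estimated counts in CPM after TMM scaling on a linear axis, bars for the membrane and secreted form: the secreted bar rises from 1074 to 13606 with LPS in ΔleftPAL and from 1007 to 8961 in ΔIRIS cells, beside membrane bars between 2503 and 3447. Right, the secreted share of Ighm in percent, from estimated counts (circles) and from TPM (diamonds): both measures lie near 25% at rest, and after LPS the ΔIRIS library lies below the ΔleftPAL library.

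Summed over both forms, Ighm and Igkc were at least 2-fold higher after LPS in both genotypes and Iglc2 was not. The gene counts cover 5 exons of Ighm, from the constant domains to the start of the membrane exons, the single exon of Igkc (ENSMUSG00000076609, plus strand, chr6:70726435-70726757) and 2 exons of Iglc2 (ENSMUSG00000076937, minus strand, chr16:19198401-19198852 and chr16:19200198-19200351). Of all 11286 genes tested, which had 50 counts or more on average, 20.1% were at least 2-fold higher after LPS in ΔleftPAL and 21.6% in ΔIRIS cells, against 2 of the 3 members in each. In TPM 1 member passed in ΔIRIS cells, since Igkc came to 0.90 on the log2 scale.

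Ighm, the gene of the μ chain, had 81950 reads in resting and 315386 in LPS ΔleftPAL cells, and 87931 in resting and 234800 in LPS ΔIRIS cells. In CPM these were 3355, 11707, 3025 and 8011. Both LPS libraries lay above both resting libraries, and the ΔleftPAL library was the higher in each state. The log2 ratio of LPS over resting was 1.80 in ΔleftPAL (interval 1.79 to 1.81) and 1.41 in ΔIRIS cells (interval 1.39 to 1.42), and 7.07% and 12.4% of all genes were higher by as much or more.

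Igkc, the gene of the kappa constant domain, had 29214 and 98525 reads in ΔleftPAL cells (resting and LPS) and 26039 and 57662 in ΔIRIS cells, or 1196, 3657, 896 and 1967 CPM. Its order over the libraries was that of Ighm. The log2 ratio of LPS over resting was 1.61 in ΔleftPAL (interval 1.59 to 1.63) and 1.14 in ΔIRIS cells (interval 1.11 to 1.16). Of all genes, 9.01% and 18.2% were higher by as much or more.

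Iglc2, a gene of the lambda constant domain, had 7534 and 9970 reads in ΔleftPAL cells (resting and LPS) and 7865 and 8435 in ΔIRIS cells, or 308, 370, 271 and 288 CPM. The 4 libraries lay within a narrow range, with log2 ratios of LPS over resting of 0.26 in ΔleftPAL (interval 0.22 to 0.31) and 0.09 in ΔIRIS cells (interval 0.04 to 0.13). In TPM the direction turned, to -0.27 in ΔleftPAL and -0.31 in ΔIRIS cells. In gene counts, 44.4% and 51.4% of all genes were higher by as much as Iglc2 or more. For the median gene the log2 ratio was 0.12 in ΔleftPAL cells, and 0.13 in ΔIRIS cells.

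The sign of the changes with LPS turned when libraries were scaled by Gapdh, whose own log2 ratio exceeded that of the median gene by 2.53 in ΔleftPAL and by 2.86 in ΔIRIS cells. Scaled by Gapdh, the median gene came to -2.45 and -2.76 and Ighm lay above it by 1.61 and 1.19, against 1.68 and 1.28 with TMM.

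All 3 members were lower in ΔIRIS than in ΔleftPAL cells, in the resting as in the LPS libraries, and none by 2-fold. The resting comparison rests on the library with 21.8% mitochondrial ribosomal RNA, whose part in it was not tested. Of the 3 constant genes Igkc differed most. The log2 ratio of Igkc was -0.42 at rest (interval -0.44 to -0.39) and -0.89 after LPS (interval -0.91 to -0.88), that of Ighm was -0.15 at rest (interval -0.16 to -0.14) and -0.55 after LPS (interval -0.56 to -0.54), and that of Iglc2 was -0.19 at rest (interval -0.23 to -0.14) and -0.36 after LPS (interval -0.40 to -0.32). Ighm at rest turned to 0.02 when scaled by Gapdh, under which the median gene came to 0.17, and Igkc after LPS was at -1.06, past 2-fold.

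For comparison, 1.02% of all genes were at least 2-fold lower and 1.83% at least 2-fold higher in ΔIRIS cells at rest, and 1.41% and 0.567% after LPS. After LPS, 1.75% of the genes were lower by as much as Igkc or more, 5.01% by as much as Ighm and 9.34% by as much as Iglc2. At rest these shares were 9.49%, 30.8% and 26.5%.

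An additive model of genotype and LPS over the 4 libraries has 1 residual degree of freedom and takes the change with LPS to be the same in both genotypes. Its residual is the difference between the genotypes in that change, so its p-values hold no spread between replicate pools or mice. The change was 1.80 in ΔleftPAL and 1.41 in ΔIRIS cells for Ighm, and 1.61 and 1.14 for Igkc. In edgeR's quasi-likelihood test with Benjamini-Hochberg adjustment, the LPS term was 1.60 for Ighm (adjusted p = 0.000738), 1.37 for Igkc (adjusted p = 0.00125) and 0.18 for Iglc2 (adjusted p = 0.254) on the log2 scale, while 64.3% of all genes were called. Ighm and Igkc were higher after LPS in 2 of 2 genotypes. The genotype term was -0.35 for Ighm, -0.66 for Igkc and -0.28 for Iglc2, each with an adjusted p of 0.707, and 0.00886% of all genes were called. The unadjusted p of the genotype term in this model was 0.0724 for Ighm, 0.00819 for Igkc and 0.0702 for Iglc2, where 7.02% of all genes were under 0.05.

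**Figure D2:**
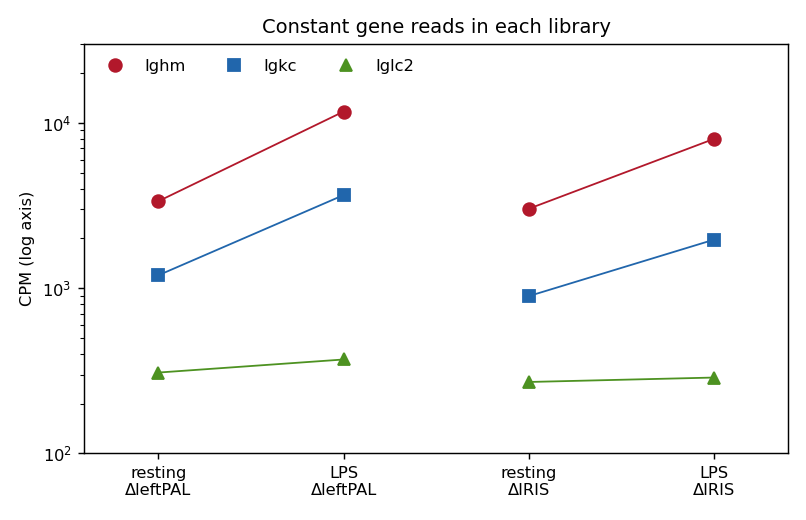
Reads of the constant genes in CPM on a log axis, 1 point per library and gene, with lines joining the resting and LPS libraries of a genotype. Ighm (3025 to 11707 CPM) and Igkc (896 to 3657 CPM) lie higher after LPS in both genotypes, while Iglc2 stays between 271 and 370 CPM.

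Read numbers of different genes cannot be set side by side without their lengths. Per kilobase of counted exon, Igkc had the highest level of the 3 genes in every library, at 3703, 11322, 2773 and 6091 CPM per kb in resting ΔleftPAL, LPS ΔleftPAL, resting ΔIRIS and LPS ΔIRIS cells. Ighm followed with 2258, 7878, 2035 and 5391, and Iglc2 with 509, 611, 446 and 475. The order was the same in TPM, in which Igkc ranked between the third and the tenth of all genes in each library. Ighm reads of resting cells include the membrane form, so the level of heavy chain RNA is not that of secreted chain.

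The heavy chain took a slightly larger share of the constant gene reads after LPS. Ighm held 69.0% of the reads of Ighm, Igkc and Iglc2 in resting ΔleftPAL cells (interval 68.8 to 69.3) and 74.4% after LPS (interval 74.3 to 74.5), and 72.2% in resting ΔIRIS cells (interval 71.9 to 72.4) and 78.0% after LPS (interval 77.9 to 78.2). The share was higher after LPS in both genotypes and higher in ΔIRIS than in ΔleftPAL cells in both states. Divided by exon length the shares were 34.9%, 39.8%, 38.7% and 45.1% in the same order of libraries, with the same directions. Expressed as reads of Ighm per light chain read, the values were 2.23, 2.91, 2.59 and 3.55.

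The kappa share of light chain constant reads was higher after LPS. Igkc made up 79.5% of the reads of Igkc and Iglc2 in resting ΔleftPAL cells (interval 79.1 to 79.9) and 90.8% after LPS (interval 90.6 to 91.0). In ΔIRIS cells it made up 76.8% at rest (interval 76.3 to 77.3) and 87.2% after LPS (interval 87.0 to 87.5). The share moved with LPS by 11.3 and 10.4 percentage points, and it was lower in ΔIRIS cells in both states. The size of this shift depended on the unit, being 19.4 and 16.04 points in kallisto estimated counts and 6.97 and 6.63 points per exon length, in the same directions. These values say how reads of the counted genes divide and not how many cells carry each chain. A share of reads also depends on how much light chain RNA each cell holds, and reads of Iglc1 and Iglc3 have no place of their own.

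How the lambda genes resemble each other bears on which reads the Iglc2 row could take, so a stretch of 60 bases is shown, the one in which Iglc1 departs most from Iglc2. It lies at chr16:19198744-19198803 in Iglc2, chr16:19065573-19065632 in Iglc3 and chr16:19061963-19062022 in Iglc1, all on the minus strand. Capitals mark bases that differ from Iglc2 at the same place.
Iglc2: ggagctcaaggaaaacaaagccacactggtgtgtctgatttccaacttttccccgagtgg
Iglc3: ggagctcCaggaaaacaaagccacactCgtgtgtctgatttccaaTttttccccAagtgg
Iglc1: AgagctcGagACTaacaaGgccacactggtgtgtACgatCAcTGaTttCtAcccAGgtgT

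Iglc3 differed from Iglc2 at 4 bases of this stretch and Iglc1 at 18. Over the coding part, Iglc3 matched Iglc2 at 96.5% of 317 aligned bases and shared 95 of its 287 words of 31 bases with it, whereas Iglc1 matched at 74.7% of 316 aligned bases and shared 0 words. The gene counts of Iglc2 came to between 0.601 and 0.726 of its kallisto estimated counts, against 0.930 to 0.993 for Ighm and 1.15 to 1.16 for Igkc.

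Variable segments give a readout of the light chains that does not use the constant genes. The 104 Igkv segments summed to 24560 and 88268 reads in resting and LPS ΔleftPAL cells and to 26977 and 58395 in resting and LPS ΔIRIS cells. With LPS their log2 ratio was 1.70 in ΔleftPAL and 1.10 in ΔIRIS cells, close to the values of Igkc. The 114 Ighv segments gave 1.84 and 1.46, close to those of Ighm. Between the genotypes, the log2 ratio of ΔIRIS over ΔleftPAL at rest was -0.12 for Igkv, -0.09 for Ighv and -0.22 for the lambda segments, so that kappa did not differ most there as it did among the constant genes. Between the LPS libraries these values were -0.72, -0.47 and -0.36.

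The lambda variable segments moved apart from Iglc2. Iglv1, Iglv2 and Iglv3 summed to 4188 and 12918 reads in resting and LPS ΔleftPAL cells and to 4276 and 10925 in resting and LPS ΔIRIS cells, or log2 ratios of 1.48 (interval 1.43 to 1.53) and 1.34 (interval 1.29 to 1.39). Per read of Iglc2 there were 0.556 Iglv reads in resting ΔleftPAL and 0.544 in resting ΔIRIS cells, and 1.30 after LPS in both. In kallisto estimated counts the ratio was also higher after LPS, going from 0.388 to 1.02 in ΔleftPAL and from 0.389 to 0.975 in ΔIRIS cells. By contrast, Ighv reads per Ighm read lay between 0.159 and 0.172 in all 4 libraries, and Igkv reads per Igkc read between 0.841 and 1.04. In kallisto estimated counts these ranges were 0.0641 to 0.0746 for the heavy chain and 0.811 to 0.989 for kappa, so that the level of the ratio depended on the table.

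Iglv1, the segment next to Iglc3 and Iglc1 in the locus, held 58.4% of the lambda variable reads in resting ΔleftPAL (interval 56.9 to 59.9) and 58.8% in resting ΔIRIS cells (interval 57.3 to 60.3). After LPS it held 66.9% (interval 66.1 to 67.7) and 70.1% (interval 69.3 to 71.0). Its log2 ratio of LPS over resting was 1.68 in ΔleftPAL and 1.60 in ΔIRIS cells, against 1.30 and 0.92 for Iglv3 and 0.84 and 0.82 for Iglv2. In the mouse locus Iglv1 is joined mainly to those neighbours, neither of which was analysed here, and whether this bears on the ratio of Iglv to Iglc2 reads was not tested. The log2 ratio of Iglc2 itself was 0.26 in ΔleftPAL and 0.09 in ΔIRIS cells, below those of Iglv1, Iglv2 and Iglv3 alike.

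With variable segments the kappa share did not show a rise with LPS in both genotypes. Igkv made up 85.4% of light chain variable reads in resting ΔleftPAL cells (interval 85.0 to 85.8) and 87.2% after LPS (interval 87.0 to 87.4). In ΔIRIS cells it made up 86.3% at rest (interval 85.9 to 86.7) and 84.2% after LPS (interval 84.0 to 84.5). The 4 values lay within a few percentage points of each other, and the change with LPS was upwards in ΔleftPAL and downwards in ΔIRIS cells.

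**Figure D3:**
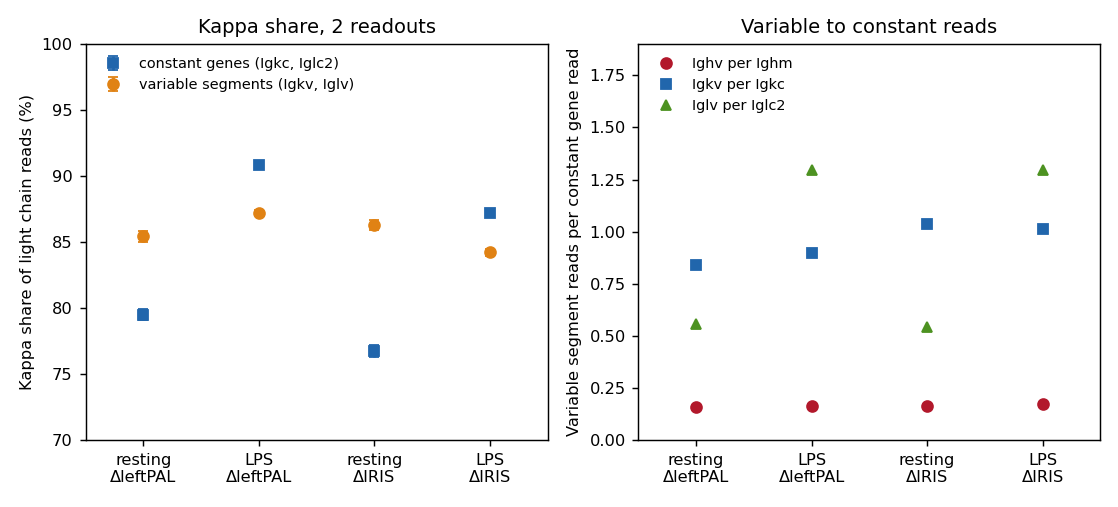
Left, the kappa share of light chain reads in percent (axis from 70 to 100), from constant genes (squares) and from variable segments (circles), with exact 95% intervals for counting error. Constant genes give 76.8% to 79.5% at rest and 87.2% to 90.8% after LPS, variable segments 84.2% to 87.2% over all libraries. Right, variable segment reads per read of the constant gene in each library: the value for lambda goes from about 0.5 at rest to 1.30 after LPS, while those for heavy chain and kappa differ by less than 0.1 between resting and LPS cells.

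Genes whose products work with the immunoglobulin chains were read from lists. Cd79a and Cd79b, the signalling chains that hold membrane IgM at the surface, were lower after LPS, as the membrane transcript was. Cd79a went from 463 to 239 CPM in ΔleftPAL and from 477 to 250 in ΔIRIS cells, and Cd79b from 977 to 488 and from 618 to 444. Of these 2 genes, 1 reached a 2-fold difference, Cd79b in ΔleftPAL cells, just past it. At least 2-fold lower were 15.5% of all genes in ΔleftPAL and 17.3% in ΔIRIS cells. Of the 4 genes listed under the surrogate light chain, which serves precursor B cells, 1 had enough reads. This was Vpreb3, which was lower after LPS, with log2 ratios of -1.84 and -1.53. Vpreb1, Vpreb2 and Igll1 had at most 4 reads in any library, and Vpreb3 alone does not show surrogate light chain in these cells.

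Genes listed for IgM assembly and polymerisation in the endoplasmic reticulum were mostly higher after LPS. The list is not limited to genes that act on IgM alone. It was chosen with earlier results of these data known, so its counts describe the list and are not a test. At least 2-fold higher were 14 of 16 in ΔleftPAL and 12 of 16 in ΔIRIS cells, where 20.1% and 21.6% of all genes were. The median log2 ratios were 1.46 and 1.29 against 0.12 and 0.13 for all genes. At least 2-fold lower were 0 and 1 of the list, where 15.5% and 17.3% of all genes were. Mzb1, a chaperone of IgM in B cells, had log2 ratios of 2.33 in ΔleftPAL and 2.53 in ΔIRIS cells. Those of Sdf2l1 and Creld2, proteins of the endoplasmic reticulum, were 2.53 and 2.26, and 2.63 and 2.12, and that of Lman1, a cargo receptor of the secretory pathway, was 1.89 and 2.28. Dnajb9, a co-chaperone, was the gene lower by 2-fold in ΔIRIS cells, at -1.87 (named after its value was seen).

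Igj, the gene of the J chain that closes IgM polymers, had 188 and 501 CPM in resting and LPS ΔleftPAL cells and 155 and 283 CPM in resting and LPS ΔIRIS cells. The LPS libraries differed by -0.82 on the log2 scale, in the direction of secreted Ighm (Igj was named after its value was seen). Between the genotypes 0 of the 16 genes differed by 2-fold in either state, where at rest 1.83% of all genes were higher and 1.02% lower by that much in ΔIRIS cells and after LPS 0.567% and 1.41%.

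Among 13 transcription factors of immunoglobulin genes, 3 were at least 2-fold higher after LPS in ΔleftPAL and 2 in ΔIRIS cells, and 1 and 2 at least 2-fold lower. Of all genes 20.1% and 21.6% were higher by that much and 15.5% and 17.3% lower, so the counts of the list lay near the background. The group had no common direction, with medians of 0.10 and -0.20. Prdm1, the factor that drives the plasma cell programme, went from 4.54 to 76.0 CPM in ΔleftPAL (log2 ratio 3.92) and from 7.22 to 43.9 CPM in ΔIRIS cells (2.52). Xbp1, which drives secretory capacity, had log2 ratios of 2.64 and 2.00, and Ets1, which restrains plasma cell differentiation, -1.85 and -2.15.

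Irf4, a factor of plasma cell differentiation, was the list's gene at least 2-fold apart between genotypes, at rest, with a log2 ratio of 1.08. Of all genes 1.83% were at least 2-fold higher in ΔIRIS cells there. It had 285 CPM in resting ΔleftPAL and 604 in resting ΔIRIS cells, and 458 and 392 after LPS, so that its change with LPS had opposite signs, 0.68 and -0.62.

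Of 10 genes that act on the 3' end or splicing of Ighm RNA, 2 were at least 2-fold higher after LPS in ΔleftPAL and 3 in ΔIRIS cells, and 0 and 1 at least 2-fold lower, again near the shares of all genes (20.1% and 21.6% higher, 15.5% and 17.3% lower). Ell2, an elongation factor that favours the secreted site, had 30.3 and 157 CPM in resting and LPS ΔleftPAL cells and 38.1 and 102 CPM in resting and LPS ΔIRIS cells. With LPS its log2 ratio was 2.35 and 1.404, and the LPS libraries differed by -0.62. The median of the list between the LPS libraries was 0.12, of the opposite sign. Ptbp1, a splicing repressor, had 1.26 and 1.16. Between the genotypes 0 of the 10 genes were 2-fold apart, beside shares of all genes of 1.83% higher and 1.02% lower at rest and 0.567% and 1.41% after LPS.

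Of the 5 markers of plasma cells 0 differed by 2-fold between the LPS libraries, where 1.41% of all genes were lower in ΔIRIS cells by that much. Sdc1, Prdm1, Igj, Xbp1 and Irf4 summed to 552 and 1443 CPM in resting and LPS ΔleftPAL cells and to 848 and 992 CPM in resting and LPS ΔIRIS cells. Irf4 made up 604 of the 848 CPM in resting ΔIRIS cells, and without it (left out after seeing the data) the sums were 267 and 985 CPM in ΔleftPAL and 244 and 600.2 CPM in ΔIRIS cells, so that the fold with LPS in ΔIRIS cells went from 1.17 to 2.46 and that in ΔleftPAL cells from 2.61 to 3.69. The median log2 ratio of the 5 genes with LPS was 1.41 in ΔleftPAL cells, and 0.87 in ΔIRIS cells. Between the LPS libraries their log2 ratios ran from -0.82 for Igj to -0.22 for Irf4, with a median of -0.58, and Sdc1, the gene of the surface marker CD138, was at 17.9 and 13.2 CPM in LPS ΔleftPAL and LPS ΔIRIS cells. In bulk RNA, fewer secreting cells and less secreted RNA per cell cannot be told apart, and the part of cell composition in the difference between the LPS libraries was not tested.

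**Figure D4:**
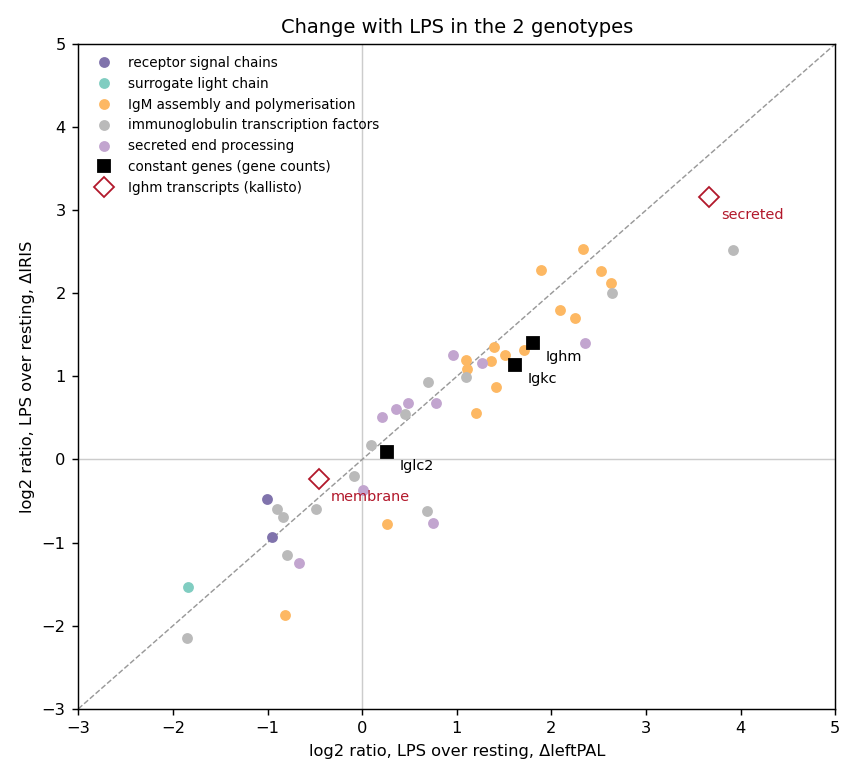
log2 ratio of LPS over resting in ΔleftPAL (x axis) against ΔIRIS cells (y axis) for the constant genes (squares), the Ighm transcripts (diamonds) and the genes of the lists (circles), with a dashed line of equal change. Secreted Ighm lies at 3.66 and 3.15 and below the line, with Ighm and Igkc, while membrane Ighm lies below 0 on both axes and Iglc2 near 0.

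The genes most like each member over the 4 libraries were taken by the Euclidean distance of centred log2 CPM, among 11116 genes other than immunoglobulin genes. With 4 points this is a description of level patterns alone. Nearest to Ighm were Atp5o (distance 0.118), a subunit of ATP synthase, Cdk2ap1 (0.145) and Edem1 (0.147), which acts in the disposal of misfolded glycoproteins. Nearest to Igkc were Lmo7 (0.160), Gm5801 (0.219) and Txndc5 (0.231), a disulphide isomerase of the endoplasmic reticulum, of which the former 2 had at most 6.57 CPM in any library. Nearest to Iglc2 were Rbbp9 (0.0448), Abcc1 (0.0604) and Apopt1 (0.0679).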

How the data were processed

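Per the paper's methods and the submitters' processing notes, paired 150 nt reads were aligned by the authors to mm10 (STAR 2.4.0a, Ensembl release 77), who deposited raw fragment counts per gene name from featureCounts (Subread 1.4.6-p1), with multi-mapping fragments kept at their primary alignment. A fragment that overlaps the exons of 2 gene names is by default not assigned. Fragments across a J to C junction would then be missing from the constant genes, which was not tested. The counted exons hold the coding part of Igkc and leave out the end of each Ighm form. The authors also deposited kallisto 0.42.3 estimated counts and TPM per transcript, whose index is not given in the sources used here.

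Counts were scaled with TMM factors of edgeR 4.0.16 (0.970 to 1.03 for gene counts, 0.851 to 1.15 for estimated counts) in R 4.3.3. Ratios carry exact 95% Clopper-Pearson intervals of the read share of 2 libraries (Python 3.11.15, scipy 1.17.1), rounded estimated counts included. With 1 library per group no pair of libraries could be tested. An additive edgeR quasi-likelihood model of genotype and LPS, added after seeing the data, used all 4 libraries. Across genes, log2 ratios used CPM plus 0.5 and a mean of at least 50 counts, and a 2-fold difference was counted. The floor of 3 counts was at most 0.123 CPM. The row without a gene name held at most 0.0264% of fragments and was left out.

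Sequences and exon classes came from GENCODE M21 (GRCm38), whose Ighm transcripts have the lengths of those in the kallisto tables. Its Igkc transcript, of 532 bases, does not, and the TPM of Igkc rest on the shorter length of 323 bases in those tables. Lists named at most 4 genes each, those at least 2-fold apart in both LPS comparisons or between genotypes. Cd79a and Cd79b, the only genes of their list, were named outside this rule, as were single marker genes, Igj and Dnajb9. The 3 genes most alike were named per member. Members and lists were chosen with earlier results of these data known. Alternatives tried were size factors of DESeq2 1.42.0, Gapdh, TMM without immunoglobulin genes, total counts, kallisto estimated counts, TPM and other filters. The scalings of the Ighm transcripts were added after seeing the data. The ratios and intervals were tried on simulated counts with counting error alone, and the additive model on simulated counts with the spread that it had fitted. Neither covers how pools or cultures vary.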

Additional observations from a re-analysis of the deposited data

Results flagged for a closer look

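The kappa share of light chain variable segment reads changed with LPS in opposite directions in the genotypes, by 1.80 percentage points in ΔleftPAL and by -2.08 in ΔIRIS cells, a difference of -3.88. With kallisto estimated counts the shares went from 80.8% to 84.4% in ΔleftPAL and from 82.6% to 80.7% in ΔIRIS cells, with the same directions. Igkv reads per Igkc read also changed in opposite directions, from 0.841 to 0.896 in ΔleftPAL and from 1.04 to 1.01 in ΔIRIS cells, a difference between the changes of -0.079. With 1 library per group neither difference was tested.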

How the results depend on the processing

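The counts of members at least 2-fold apart (2, 2, 0 and 0 of 3 for LPS over resting in ΔleftPAL and ΔIRIS cells and for ΔIRIS over ΔleftPAL at rest and after LPS) stayed within 1.5 times in 22 of 24 alternatives. The exceptions were TPM, where 1 member passed in ΔIRIS cells after LPS, since Igkc came to 0.90, and scaling by Gapdh, where 1 member, Igkc, passed between the LPS libraries at -1.06. Scaled by Gapdh, the log2 ratios of LPS over resting were -0.84 for Ighm, -1.03 for Igkc and -2.38 for Iglc2 in ΔleftPAL and -1.58, -1.85 and -2.89 in ΔIRIS cells under that scaling, Gapdh itself being higher, so that the 2 and 3 members past 2-fold there were lower ones. Ighm between the resting libraries was 0.020 scaled by Gapdh. In TPM, Iglc2 gave -0.27 in ΔleftPAL and -0.31 in ΔIRIS cells. Membrane Ighm between the LPS libraries turned to -0.0083 in TPM, -0.031 with total estimated counts and -0.14 scaled by Gapdh. Why the tables differ was not tested.

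Shares depended on the unit, and their order over the libraries, given as resting and LPS ΔleftPAL and resting and LPS ΔIRIS, is the same below as in the report. The kappa share was 87.9%, 94.9%, 86.1% and 92.8% per exon length, 66.8%, 86.2%, 65.1% and 81.1% in estimated counts and 85.8%, 94.8%, 84.3% and 92.6% in TPM. The heavy chain share was 34.9%, 39.8%, 38.7% and 45.1% per exon length, 69.9%, 76.2%, 73.1% and 79.4% in estimated counts and 21.7%, 26.8%, 25.7% and 31.4% in TPM. The secreted share of Ighm was 26.5%, 86.3%, 26.8% and 79.3% in TPM. Both Ighm transcripts hold all 4 constant domain exons, so leaving out others changed nothing.

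Counts of all genes at least 2-fold apart moved by over 1.5 times with a prior of 5 CPM, to 1072 and 1296 lower after LPS in ΔleftPAL and ΔIRIS cells, to 91 higher and 37 lower in ΔIRIS cells at rest and to 13 higher and 70 lower after LPS, and with no minimum count to 179 lower at rest. Shares of single lambda genes could not be computed. No paired analysis was possible because the labels number no replicates to pair; the additive model, given in the report, takes genotype as a block for LPS, and its values lay between those of the genotypes.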
